A study of Mus musculus with 6 samples.

Results

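The genes described here serve the last steps of red cell formation, in which the erythroblast condenses its chromatin and expels its nucleus. They were chosen by their known role in enucleation or chromatin condensation: the histone deacetylases Hdac2, Hdac5 and Hdac6, the nuclear exportin Xpo7, the histone methyltransferase Setd8 (now Kmt5a), the formin Diap3 (now Diaph3), the GTPases Rac1 and Rac2, and the ubiquitin ligase Trim58. Of the 9 genes, 8 had a probe set annotated to them alone, 23 probe sets in all out of 45101 on the array, and Trim58 was not analysed here. A probe set is a group of short probes read as a single value. Of the 23 probe sets, 20 had a mean signal high enough to be tested.

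During terminal differentiation the erythroblast nucleus shrinks as histones lose acetyl groups and some nuclear proteins are exported. The condensed nucleus then moves to a pole of the cell, a ring of actin and myosin forms behind it, and the nucleus is pushed out as a pyrenocyte, leaving a reticulocyte. In mouse erythroblasts Rac GTPases and the formin mDia2, the product of Diaph3, assemble that ring, Hdac2 and Xpo7 are needed for condensation, and Trim58 marks the motor protein dynein for degradation.

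The cells were erythroid progenitors of bone marrow that carried both CD71 (the receptor for transferrin) and Ter-119 (an antigen of red cells and their precursors), isolated by sorting. In the Rb-null group (n = 3 arrays) both Rb alleles were floxed (Rb fl/fl), and in the control group (n = 3 arrays) a floxed allele stood beside a wild-type one (Rb fl/+). All mice of both groups also carried EpoR-GFPcre/+, a Cre at the erythropoietin receptor locus that drives recombination in the erythroid lineage. The series title asks how cell cycle exit is tied to the making of mitochondria. The sources used here do not give the animals' age or say whether each array had its own animal, so the p-values rest on a spread between arrays that may be technical.

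The median intensity was 24.5 to 29.5 on Rb-null arrays and 23.3 to 31.2 on control arrays. Both arrays numbered 3 stood apart in their 18S ribosomal RNA control probe sets, with 542 (Rb-null) and 1231 (control), against 32.6 to 66.2 on the other arrays. The bright Rb1 probe set read 4045, 3669.9 and 2897 on Rb-null arrays and 2760.2, 2152 and 1379 on control arrays. It was thus higher in the Rb-null group, without overlap, with a log2 fold change of 0.75 (SE 0.32). As its place relative to the floxed part is unknown, it does not check the labels. Of 9 markers of nucleated erythroid precursors 7 had a probe set, and their summed intensity was 32020 to 38439 on Rb-null arrays and 31403 to 33807 on control arrays, with Alas2, Slc4a1, Tfrc, Klf1 and Gata1 at 1057 or more on every array. The alpha globin probe set (Hba-a1), at 12.2, 6.97 and 14.1 on Rb-null arrays and 8.61, 12.3 and 27.0 on control arrays, was too dim to be tested. By mean log2 value 3 of the 7 markers, Alas2, Hba-a1 and Epor, were lower in Rb-null cells. Epor, the locus of the Cre, varied by array rather than by group, with 248, 2228 and 558 on Rb-null arrays and 2221, 266 and 609 on control arrays. Granulocyte markers were bright too: the sum over 12 of 14 genes was 26502, 53090 and 32155 on Rb-null arrays 1, 2 and 3, and 35754, 52905 and 39979 on control arrays 1, 2 and 3. Markers of other cell types had smaller sums. For 8 macrophage genes these were 1354 to 1833 on Rb-null arrays and 1627 to 3086 on control arrays, and for 7 B cell genes 259 to 460 on Rb-null arrays and 409 to 772 on control arrays. For 5 T and NK cell genes they were 209 to 337 on Rb-null arrays and 241 to 364 on control arrays, and for 5 megakaryocyte genes 293 to 353 on Rb-null arrays and 298 to 531 on control arrays.

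Xpo7 had lower signal in Rb-null cells, and Rac1, Kmt5a and Hdac6 had higher signal, each by a probe set whose groups did not overlap. Diaph3 was lower, Rac2 was lower with overlapping groups, and Hdac2 and Hdac5 differed by less than the spread between arrays. None of the 20 tested probe sets passed limma's test over all 27019 probe sets (lowest adjusted p = 0.419), where 0 probe sets, 0%, passed. This fit keeps the spread between replicate numbers in its error, although arrays of the same number deviated together, so its 0 calls say little about whether the groups differ. At unadjusted p under 0.05 there were 5 of the 20, against 4.14% of all probe sets: 3 were higher, against 2.8% of all, and 2 lower, against 1.34%. With the replicate number as a block 0 again passed (lowest adjusted p = 0.0999), and 9 of the 20 had an unadjusted p under 0.05, against 16.5% of all probe sets. A fit that added a variance trend and robust moderation to the block called 7 of the 20, against 3.47% of all probe sets, with 3 higher (2.24% of all) and 4 lower (1.23% of all).

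**Figure D1:**
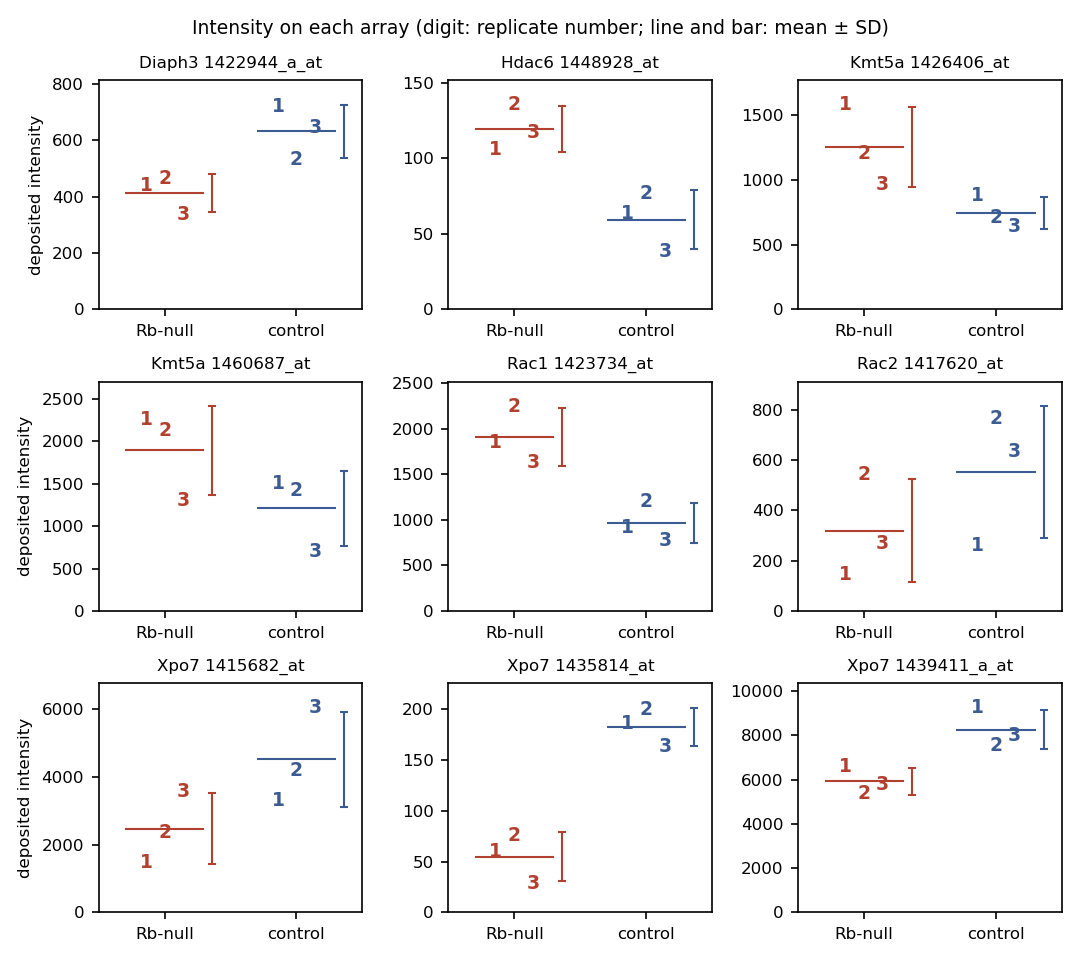
Deposited intensity (linear scale from 0) of the 9 probe sets with an absolute log2 difference of 0.5 or more, a limit chosen after their values were seen, on Rb-null and control arrays. Digits mark the replicate number, the horizontal line the group mean and the bar ± 1 SD (n = 3); Xpo7 1435814_at, Xpo7 1439411_a_at and Diaph3 lie lower in every Rb-null array than in any control array, and Rac1, Kmt5a 1426406_at and Hdac6 lie higher.

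Xpo7 encodes exportin 7, a nuclear export receptor that becomes abundant late in mouse erythroid differentiation and carries histones and other proteins out of the condensing nucleus. It was measured by 8 probe sets, and the 3 with the largest differences were all lower in Rb-null cells. Probe set 1435814_at read 60.1, 76.0 and 28.6 on Rb-null arrays 1, 2 and 3, against 185, 199.6 and 163 on control arrays 1, 2 and 3. Every Rb-null value lay below every control value. The means were 54.9 ± 24.1 in Rb-null cells and 182 ± 18.7 in controls (SD, n = 3 each), a log2 fold change of -1.56 (SE 0.29), or 2.95-fold lower. Among the 27019 probe sets tested, 13 had a lower log2 fold change. This probe set was dim, so its fold change depended on the constant of 16 added to each value before the log2 step. With 64 added instead, the probe set had -1.09, and with 1 added -1.83. Its limma adjusted p was 0.419, and 0.0235 with the block, trend and robust moderation.

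Probe set 1415682_at read 1477, 2349.9 and 3573 on Rb-null arrays, against 3296, 4196 and 6041 on control arrays. Rb-null array 3 lay above control array 1, so the groups overlapped, while within each replicate number the Rb-null array was the lower, with normalized log2 differences of -1.28, -0.90 and -0.83. The log2 fold change was -1.00 (SE 0.41), 2.00-fold lower, with a limma adjusted p of 1.00 (0.0176 with the block, trend and robust moderation). Probe set 1439411_a_at, which by its suffix reads several transcripts of the gene, had 6590.1, 5375 and 5787 on Rb-null arrays and 9252, 7555 and 7978 on control arrays. These groups did not overlap, and the pair differences were -0.51, -0.49 and -0.56. Its log2 fold change was -0.52 (SE 0.27), 1.44-fold lower (limma adjusted p = 1.00, and 0.0235 with the block, trend and robust moderation). This signal was 43.3% to 62.0% of the highest intensity on the same array in Rb-null samples and 60.5% to 79.2% in controls.

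The other Xpo7 probe sets were dim, like 1435814_at, and their groups overlapped. Probe set 1442836_at averaged 83.1 ± 24.8 in Rb-null cells and 101 ± 25.7 in controls (SD, n = 3 each), with a log2 fold change of -0.26 (95% interval -0.89 to 0.38) that ran from -0.38 without Rb-null replicate 1 to -0.12 without Rb-null replicate 3. Probe sets 1446826_at and 1432573_at had log2 fold changes of -0.23 (95% interval -0.95 to 0.49) and -0.11 (95% interval -0.87 to 0.64). The remaining pair, 1443089_at and 1454281_at, read at most 21.8 on Rb-null arrays and 28.6 on control arrays and were not tested. Over the 6 arrays the normalized log2 values of the 3 probe sets with the largest differences had Pearson correlations of 0.49 to 0.76 with each other, all on the same arrays. The sources used here do not say where in the gene the probe sets lie.

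Kmt5a, listed under its older name Setd8, encodes the methyltransferase that places the first methyl group on a lysine of histone H4, a mark tied to chromosome compaction and, in erythroid cells, to silencing of progenitor genes. Its bright probe sets were both higher in Rb-null cells. Probe set 1426406_at read 1581, 1207 and 967 on Rb-null arrays 1, 2 and 3, against 878, 713 and 638 on control arrays 1, 2 and 3. The groups did not overlap. The log2 fold change was 0.68 (SE 0.29), 1.60-fold higher (limma adjusted p = 1.00, and 0.0327 with the block, trend and robust moderation). Probe set 1460687_at read 2263, 2125 and 1298 on Rb-null arrays, against 1509, 1421 and 704 on control arrays. Both arrays numbered 3 were the lowest of their group, and the groups overlapped. Its log2 fold change was 0.59 (SE 0.34; limma adjusted p = 1.00, and 0.0410 with the block, trend and robust moderation), and 0.31 without control replicate 3. The dimmer probe sets 1441557_at and 1459779_s_at had 0.04 (95% interval -1.14 to 1.22) and -0.27 (95% interval -1.01 to 0.46), so the 4 probe sets of this gene disagree in sign. The value of 1459779_s_at ran from -0.53 without Rb-null replicate 2 to -0.085 without Rb-null replicate 3. The _s_at suffix marks probes shared with other transcripts.

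Among the deacetylases, Hdac6 was higher in Rb-null cells and Hdac2 and Hdac5 were not distinguishable between the groups. Hdac6 is a mostly cytoplasmic enzyme that deacetylates tubulin and, in mouse erythroblasts, mDia2. Its single probe set read 106, 135 and 117 on Rb-null arrays, against 63.1, 76.6 and 38.5 on control arrays. All Rb-null values lay above all control values, with pair differences of 0.69, 0.67 and 1.31. The means were 119 ± 14.9 in Rb-null cells and 59.4 ± 19.3 in controls (SD, n = 3 each), a log2 fold change of 0.89 (SE 0.27), 1.85-fold higher, with limma adjusted p = 0.796 (0.0638 with the block, trend and robust moderation).

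Hdac2, a nuclear class I deacetylase needed for chromatin condensation in cultured mouse fetal erythroblasts, was read by 3 probe sets. Probe set 1445684_s_at had 196, 288 and 81.1 on Rb-null arrays, against 178, 307 and 76.1 on control arrays. Arrays of the same number lay closer to each other than arrays of the same group, and the log2 fold change was 0.03 (95% interval -1.02 to 1.09). Probe sets 1449080_at and 1439704_at had -0.26 (95% interval -1.30 to 0.77) and 0.17 (95% interval -0.55 to 0.89). Hdac5, a class II deacetylase that moves between nucleus and cytoplasm, read 41.4, 64.6 and 71.5 on Rb-null arrays, against 52.9, 63.2 and 57.0 on control arrays. The groups overlapped, with a log2 fold change of 0.03 (95% interval -0.66 to 0.72). These intervals come from the fit without the replicate block. With the block the SE was 0.15 for Hdac2 1445684_s_at, 0.26 for 1449080_at, 0.17 for 1439704_at and 0.17 for Hdac5, and limma adjusted p was 0.642 or more for these 4 probe sets.

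Rac1 and Rac2, small GTPases that drive actin assembly and stand upstream of mDia2 in enucleation, had opposite signs on their tested probe sets. Rac1 is made in nearly every cell type, and its probe set 1423734_at read 1849, 2251 and 1626 on Rb-null arrays, against 916, 1205 and 772 on control arrays. Every Rb-null array lay above every control array, and the pair differences of 0.96, 0.84 and 0.94 were close to each other. The log2 fold change was 0.91 (SE 0.25), 1.88-fold higher, with limma adjusted p = 0.698 (0.0176 with the block, trend and robust moderation). Probe set 1451086_s_at, whose probes are shared with other transcripts, was also higher in each pair but less so, at 0.27 (95% interval -0.47 to 1.01). It read 863, 1712 and 1262 on Rb-null arrays and 740.0, 1249 and 964 on control arrays, with overlapping groups. Its log2 fold change was 0.095 without control replicate 1 and 0.53 without Rb-null replicate 1. A dim Rac1 probe set, 1437674_at, read at most 24.5 on any array and was not tested. Its mean log2 difference had the opposite sign, -0.41, with pair differences of -0.07, -0.06 and -1.10.

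Rac2 is the Rac of blood cells and is abundant in neutrophils. Probe set 1417620_at read 146, 544 and 266 on Rb-null arrays 1, 2 and 3, against 259, 765 and 632 on control arrays 1, 2 and 3. It was lower in each pair, with normalized log2 differences of -0.80, -0.51 and -1.19, and the groups overlapped. The log2 fold change was -0.83 (SE 0.52; limma adjusted p = 1.00, and 0.0459 with the block, trend and robust moderation), -0.38 without Rb-null replicate 1 and -1.32 without control replicate 1. Beside this, all 12 granulocyte markers measured had a lower mean in Rb-null cells, with a median log2 fold change of -0.51 and pair medians of -0.81, -0.03 and -0.61, and none was at 0. Their part in the Rac2 difference was not tested, and in sorted bulk cells fewer cells of a type and less RNA per cell cannot be told apart. The second Rac2 probe set, 1440208_at, was lower in each pair as well, at -0.39 (95% interval -1.09 to 0.31). It had -0.62 without Rb-null replicate 2 and -0.22 without Rb-null replicate 3. Its SE was 0.31 in this fit and 0.16 with the replicate block (limma adjusted p = 0.303 with the block).

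Diaph3 encodes the formin mDia2, which nucleates the actin filaments of the contractile ring in cytokinesis and enucleation. Its single probe set read 439, 465 and 336 on Rb-null arrays, against 719, 531 and 645 on control arrays. The groups did not overlap, with pair differences of -0.81, -0.20 and -0.90, of which that of pair 2 was the smallest. The log2 fold change was -0.64 (SE 0.28), 1.56-fold lower, and limma adjusted p = 1.00 (0.0982 with the block, trend and robust moderation). Of the members that act on the formin, Rac1 and Hdac6 were higher on the same arrays and Rac2 was lower, as was the formin. A link between them was not tested.

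Promoters were read for the genes with higher signal, Kmt5a and Hdac6, and for Diaph3, which was lower, because Rb acts through E2F factors bound at promoters. The windows, from RefSeq (build GRCm38.p6), run from 250 bases before to 50 bases after a transcription start, 5′ to 3′ on the gene's strand. Capitals mark CCAAT boxes (CCAAT on either strand, read as ATTGG on the other) and cell cycle homology region words (TTTGAA or TTCGAA, either strand), elements known from promoters of cell cycle genes. Of the 9 genes 6 matched an entry, and no window is shown for Xpo7, Rac1 and Rac2. The first of 3 Kmt5a windows lies at chr5:124439680-124439979 on the plus strand, the Hdac6 window at chrX:7947840-7948139 on the minus strand and the Diaph3 window at chr14:87141175-87141474 on the minus strand.
Kmt5a: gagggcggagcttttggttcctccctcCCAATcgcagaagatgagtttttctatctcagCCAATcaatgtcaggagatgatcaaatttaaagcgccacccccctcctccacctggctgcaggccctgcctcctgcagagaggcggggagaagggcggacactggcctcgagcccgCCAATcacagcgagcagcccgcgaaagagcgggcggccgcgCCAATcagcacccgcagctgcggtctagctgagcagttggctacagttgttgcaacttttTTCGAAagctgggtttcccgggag
Hdac6: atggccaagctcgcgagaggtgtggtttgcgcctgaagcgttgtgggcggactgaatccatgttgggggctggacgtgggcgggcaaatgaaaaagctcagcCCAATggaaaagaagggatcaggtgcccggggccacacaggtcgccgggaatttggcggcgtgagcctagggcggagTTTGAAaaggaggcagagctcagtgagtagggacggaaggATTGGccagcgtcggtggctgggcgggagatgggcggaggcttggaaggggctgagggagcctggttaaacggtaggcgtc
Diaph3: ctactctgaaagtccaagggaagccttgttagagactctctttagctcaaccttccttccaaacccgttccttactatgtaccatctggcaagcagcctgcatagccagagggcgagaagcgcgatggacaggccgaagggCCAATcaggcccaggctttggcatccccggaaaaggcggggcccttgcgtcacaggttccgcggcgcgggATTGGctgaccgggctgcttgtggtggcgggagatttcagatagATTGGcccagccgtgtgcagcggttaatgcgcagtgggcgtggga
The Kmt5a window shown held 4 CCAAT boxes, Hdac6 held 2 and Diaph3 held 3, where 37.4% of 32851 promoter windows of this length held at least 1. The other Kmt5a windows held 1 and 2 CCAAT boxes and no homology region or GATA word, and of the genes that were not distinguishable Hdac5 held 2 CCAAT boxes and Hdac2 none. The windows shown of Kmt5a and Hdac6 each held 1 homology region word and that of Diaph3 none, against 19.2% of all windows with such a word. The E2F words TTTCCCGC, TTTCGCGC, TTTGCCGC and TTTGGCGC, searched on both strands, were in none of these windows and in 2.26% of all. No match says only that these letters are not in this window. The GATA words, AGATAA or AGATAG or TGATAA or TGATAG on either strand, which hold the core bound by the erythroid factor Gata1, occurred once in the Kmt5a and Diaph3 windows and not in that of Hdac6, against 29.8% of all windows. No searched words overlapped in these windows.

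**Figure D2:**
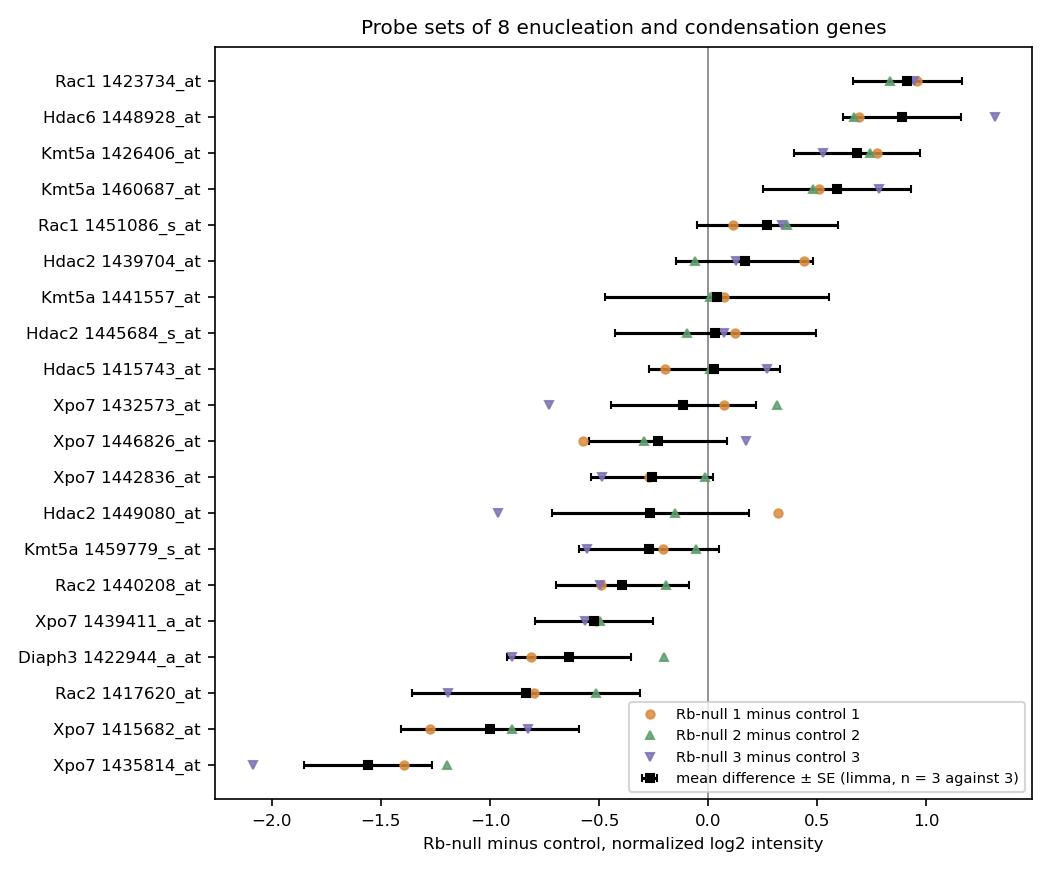
Log2 difference between Rb-null and control for the 20 tested probe sets, ordered by size. Squares show the mean difference with its SE from limma (n = 3 against 3) and coloured symbols the 3 differences between arrays of the same replicate number; the span runs from -1.56 for Xpo7 1435814_at to 0.91 for Rac1 1423734_at, and 14 of the 20 have the same sign in all 3 pairs.

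Across the 20 tested probe sets, 9 had a positive log2 fold change and the median was -0.17, against 48.4% positive and a median of -0.01 over all probe sets tested. The median was 0.031 with 1 probe set a gene, and it ran from -0.30 to -0.015 with 1 array left out. Of the 20 probe sets, 6 are of Xpo7, all negative. The members had no common direction. The direction was the same in all 3 pairs for 14 of the 20, 6 higher and 8 lower, where 20.3% of all probe sets were higher and 22% lower in every pair. The groups did not overlap for 6 of the 20, against 9.64% of all probe sets. Of these 6, 3 were higher and 3 lower, where 5.73% of all probe sets lay apart with Rb-null higher and 3.91% with Rb-null lower. As the genes were chosen with earlier results of these arrays known, and several probe sets share a gene, these shares are descriptions.

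**Figure D3:**
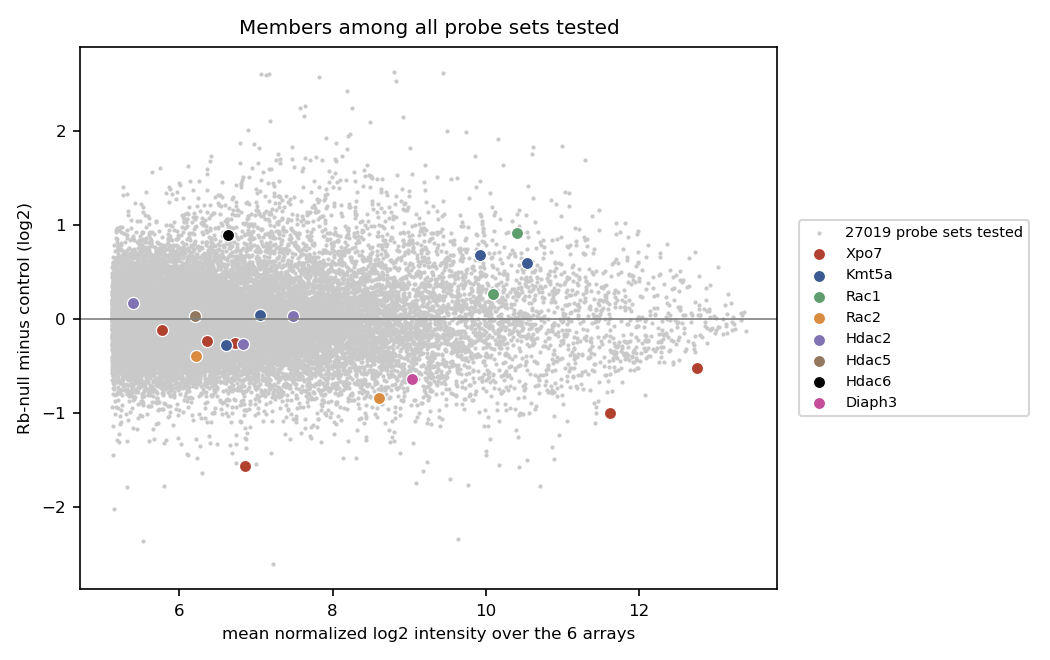
Log2 difference between Rb-null and control (vertical axis) against the mean normalized log2 intensity over the 6 arrays (horizontal axis) for all 27019 probe sets tested (grey), with the 20 probe sets of the members in colour. The lowest Xpo7 point, at -1.56, has 13 of the 27019 points below it, and the Hdac2 and Hdac5 points lie between -0.26 and 0.17.

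Other genes of the same processes were read from lists of related genes, again with 0 probe sets passing limma's adjusted test in any of the 6 lists. Genes of nuclear transport and the nuclear envelope had mostly the opposite sign to Xpo7. Of 50 probe sets of the list other than those of Xpo7, 40 had higher signal in Rb-null cells, with a median log2 fold change of 0.40, and 34 (68%) were higher in all 3 pairs, where 20.3% of all probe sets were. The unadjusted test at p under 0.05 gave 8 higher and 0 lower, where 2.8% and 1.34% of all probe sets were. The fit with block, trend and robust moderation called 14 higher and 0 lower, where it called 2.24% and 1.23% of all. Lmnb1, lamin B1 of the nuclear lamina, read 1074, 1041 and 849.6 on Rb-null arrays, against 365, 512 and 396 on control arrays. Its groups did not overlap, and its log2 fold change was 1.15 (SE 0.25), though a second Lmnb1 probe set had 0.13. Kpna3, an importin alpha, had 1.41 (SE 0.27) and 0.85 or more on each of its 3 probe sets. Kpnb1, importin beta, had 1.10 (SE 0.33) and 0.62 or more on each of its 4. Of the other exportins, Xpo6 had -0.30, Xpo1, Xpo4 and Xpo5 ran from -0.12 to 0.39, and Xpot ran from -0.17 to 1.15.

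Of 42 probe sets of dynein, microtubule and vesicle genes, 29 had higher signal (median 0.28), where 48.4% of all probe sets did. In all 3 pairs 17 (40.5%) were higher and 7 (16.7%) lower, against 20.3% and 22% of all. At unadjusted p under 0.05 there were 4 higher and 0 lower, against 2.8% and 1.34% of all. The subunits of dynein, on which Trim58 acts, were mixed, from -0.53 for Dync1i2 to 0.48 for a probe set of Dynll1. The dynactin genes Dctn1, Dctn2 and Dctn3 ran from -0.57 to 0.02. The clathrin light chain Cltb had 0.89 (SE 0.29) and 0.31 on its lowest probe set, the tubulin Tubb5 0.80 (SE 0.27) and 0.36 on its other, and the dynein regulator Pafah1b1 0.70 (SE 0.25), while the 5 Pafah1b1 probe sets ran from -0.22 to 0.70. In the list of chromatin condensation and histone modification, 41 of 53 probe sets of genes other than Kmt5a had higher signal (median 0.20). In all 3 pairs 23 (43.4%) were higher and 5 (9.43%) lower, against 20.3% and 22% of all probe sets. At unadjusted p under 0.05 there were 1 higher and 1 lower, near the shares of 2.8% and 1.34% of all probe sets. Ing2, a reader of methylated histone H3, had 1.19 (SE 0.27). Kmt5c, which adds further methyl groups to the histone H4 lysine that Kmt5a methylates first, had -0.58 (SE 0.25), opposite in sign to the bright Kmt5a probe sets. Top2a, the topoisomerase of dividing cells, had 1.09 (SE 0.50) and 0.36 on its second probe set.

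The other deacetylases had 7 tested probe sets, 4 of them higher, with a median of 0.04 and none at unadjusted p under 0.05. Hdac10 had -0.34 (SE 0.39), Hdac1 -0.29 (SE 0.37) and Hdac7 0.24 (SE 0.33). Late erythroid genes had a median of 0.02 over 49 probe sets, 26 of them higher. At unadjusted p under 0.05 there were 0 higher and 3 lower, against 2.8% and 1.34% of all probe sets. Bpgm, the bisphosphoglycerate mutase of red cells, had -1.10 (SE 0.40) and was lower on all 3 of its probe sets. Wdr26, a ubiquitin ligase subunit, had -0.80 (SE 0.30), with 1 of its 6 probe sets at 0.02, and Add2, a membrane skeleton adducin, had -0.66 (SE 0.35), with its highest probe set at 0.16. Early erythroid and progenitor genes had a median of -0.04 over 19 probe sets, 8 of them higher, with 1 higher and 0 lower at unadjusted p under 0.05. Lyl1 had 0.87 (SE 0.26), Lmo2 -0.48 (SE 0.25) and Tal1 0.49 (SE 0.27), all transcription factors or partners of early blood cells.

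**Figure D4:**
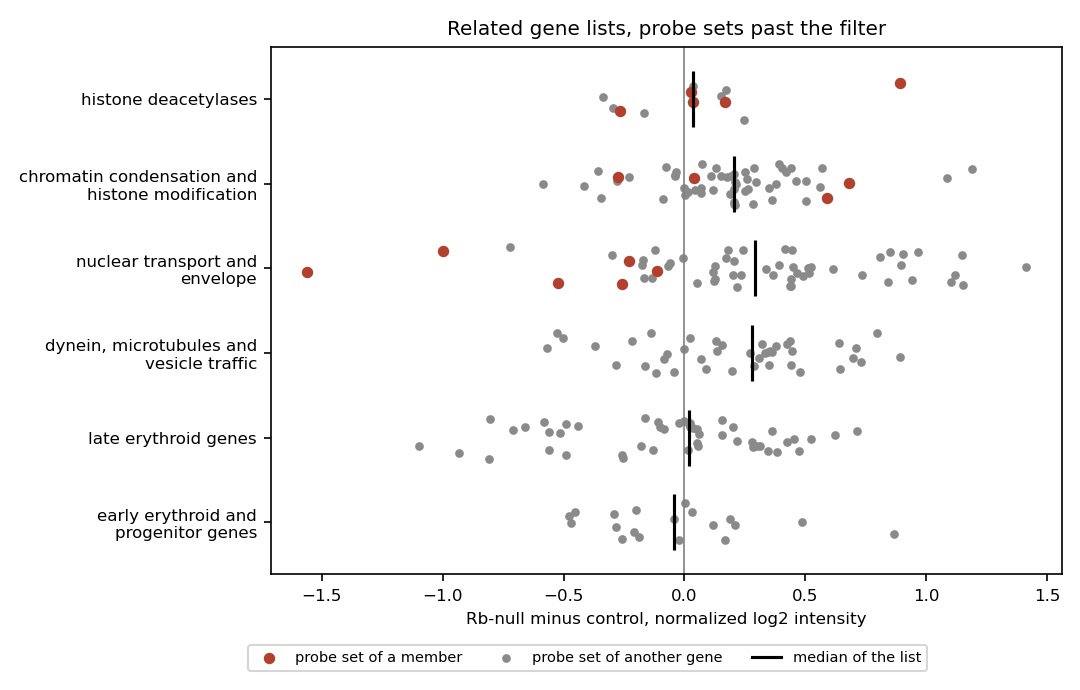
Log2 difference between Rb-null and control of each tested probe set in 6 lists of related genes, with probe sets of members that belong to a list in red, those of other genes in grey and the median of each list, members included, as a black bar. In the nuclear transport list the 6 Xpo7 points lie below 0 and 40 of the 50 others above it.

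The genes most like a member were read for its brightest probe set, by Pearson correlation of normalized log2 values over the 6 arrays, which share their groups and replicate numbers. Hdac6 was followed most closely by Tmpo (r = 0.996), Inafm1 (0.993) and Pknox1 (0.992), with log2 fold changes of 1.47, 1.76 and 1.24. Xpo7 1439411_a_at was followed by Rbfox2 (r = 0.991), Cox19 (0.990) and Slc9a8 (0.990), with log2 fold changes of -0.31, -0.46 and -0.34. With only 6 arrays, and 27019 probe sets compared, correlations of this size are a description only.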

How the data were processed

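RNA of sorted bone marrow cells was read on 6 Affymetrix mouse arrays. The deposited values are linear intensities per probe set. Their summarisation from the scans: not given in the sources used here. Per the labels' protocols, Trizol and then a QIAGEN column served to purify RNA, and the label was biotin. Groups and replicate numbers come from the sample titles.

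Of 45101 probe sets, 64 control, 4 empty and 1 out of scanner range were left out. Values were transformed as log2(value + 16), which understates changes of dim probe sets, and quantile normalized. A probe set entered the test if its mean exceeded percentile 40 of all means (5.12 as log2, which equals an intensity of 18.9). These 27019 were tested one by one with limma 3.58.1 in R 4.3.3, 2-sided, with Benjamini-Hochberg adjustment over all of them and a threshold of 0.05. SE and 95% intervals come from this fit unless a block is named. With the replicate number as a block, every tested member probe set had a smaller SE. An exact permutation test of 3 against 3 arrays cannot go below p = 0.1. Genes were named from the platform annotation, in which 34941 probe sets had 1 symbol, 932 several and 9159 none.

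Arrays of the same replicate number deviated together from their group means (correlations 0.64, 0.62 and 0.67 across probe sets, against at most 0.07 for different numbers), so a fit with this number as a block was run as well. On simulated data with this pairing the fit without the block returned the sizes of the changes but called none of them, while both fits with it called most. The simulated arrays took their replicate effects and spread from the block fit itself, and the planted changes were larger than most member differences. The simulation therefore cannot show which fit is right for these arrays. Alternatives covered normalization, offset, filter, probe set choice, block, moderation, array weights and arrays left out.

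The members, the 6 pathway lists and 6 marker lists were chosen with earlier results of these data known. All members were named, with up to 3 other genes of each pathway list by smallest p, and for Hdac6 and Xpo7 the 3 most similar genes. The probe set with the smallest p stands for a named gene of a list. A further pathway list is not reported here.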

Additional observations from a re-analysis of the deposited data

How the results depend on the processing

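The count of member probe sets passing limma's test was 0 in the fit as reported and under 16 of the 17 alternatives. The replicate block alone changed no call for any member or list (0 calls, lowest adjusted p = 0.0999). The block with trend and robust moderation called 938 of 27019 probe sets, 3.47%, and 7 of the 20 of the members. In the lists it called 17 of 56 for nuclear transport (3 of them Xpo7) and 5 of 49 for late erythroid genes. For chromatin condensation it called 3 of 57 (2 of them Kmt5a) and for dynein and microtubules 3 of 42. For early erythroid genes it called 1 of 19 and for histone deacetylases 0 of 12. Why this fit called more was not tested. The members' median log2 fold change of -0.17 was 0.031 with 1 probe set a gene, -0.049 with array weights, -0.040 without both arrays numbered 3 and -0.30 to -0.015 with 1 array left out. Of 326 single member values under an alternative, 17 had the opposite sign, all of probe sets with a main value between -0.26 and 0.17. With 1 array left out, Hdac2 ran from -0.35 to 0.40 on 1445684_s_at, from -0.61 to 0.18 on 1449080_at and from -0.016 to 0.37 on 1439704_at, and Hdac5 from -0.18 to 0.24. In the same fits Xpo7 ran from -0.36 to 0.016 on 1446826_at and from -0.32 to 0.22 on 1432573_at, and Kmt5a from -0.39 to 0.45 on 1441557_at. Without both arrays numbered 3, Hdac2 1449080_at had 0.085, Hdac5 -0.10 and Xpo7 1432573_at 0.20. With array weights Hdac5 had -0.068 and Xpo7 1432573_at 0.12. The bright probe sets of Xpo7, Kmt5a, Rac1, Rac2 and Diaph3, and Hdac6, kept their sign under every alternative that held them. With 3 arrays a group, precision is limited by their number, and dim probe sets by their signal over background.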
